A study of Rattus norvegicus with 6 samples.

Results

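The genes described here are both stanniocalcins, Stc1 and Stc2, and 8 genes that cells switch on or use when oxygen is short: Vegfa, Adm, Slc2a1, Bnip3, Egln3, Hif1a, Ndrg1 and Pfkfb3. They were found by symbol, and all 10 were present among the 32883 genes of the count table. The set was chosen by the p of Stc1 in the comparison of exposed and control rats, among the smallest of all genes, so for all 10 genes that comparison is a description. No p is given for them, and where they are set against the thresholds used for other genes nothing is read from it. RNA-seq had been carried out on the vestibular sensory epithelium of adult male Long-Evans rats. The 3 control rats received plain water. For 4 weeks, the drinking water of the 3 IDPN-4wk rats held 20 mM of 3,3'-iminodipropionitrile (IDPN), which is toxic to vestibular hair cells (HCs). Each library came from the 2 utricles and 6 cristae of 1 animal, and all libraries carried the same batch label. The groups shared sex, strain and batch. The codes of the 3 exposed animals had a common stem that no control had, whose meaning is not given in the sources used here.

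When oxygen falls, the transcription factor HIF accumulates, because the oxygen-dependent prolyl hydroxylases of the EGLN family no longer mark its alpha subunit for destruction by VHL. HIF then switches on genes for glucose uptake, glycolysis, blood vessel growth and the removal of mitochondria, and also the gene of EGLN3, one of its own inhibitors. Stanniocalcins are secreted glycoproteins, first known as calcium-lowering hormones of fish. In mammals they act locally, are induced by hypoxia among other stimuli, and block the proteases of the pappalysin family that free insulin-like growth factors (IGFs) from their binding proteins.

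HIF binds DNA at a short core, A or G followed by CGTG. The letters ACGTG and GCGTG, with CACGT and CACGC for the other strand, were searched in the RefSeq promoters of build GRCr8, each 300 bases long, from 250 bases before to 50 bases after a gene's start. Of the 10 genes, 8 were matched to a promoter in the table used here. Stc1 and Ndrg1 were not matched. Matches were found in 4 of the 8 genes, and in 41.6% of all 33469 promoters. The matches are given here, since these are the genes in which the letters of the core lay close to the start. Capitals mark the matches and lower case the flanking bases, and every run is read along the strand of the gene.
Bnip3: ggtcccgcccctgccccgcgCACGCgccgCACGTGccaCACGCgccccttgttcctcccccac
Slc2a1, upstream run: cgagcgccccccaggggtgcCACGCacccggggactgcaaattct
Slc2a1, downstream run: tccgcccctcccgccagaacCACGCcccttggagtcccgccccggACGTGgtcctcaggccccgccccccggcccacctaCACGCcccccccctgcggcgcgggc
Hif1a, upstream run: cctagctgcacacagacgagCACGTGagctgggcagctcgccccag
Hif1a, downstream run: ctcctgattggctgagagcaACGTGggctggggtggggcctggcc
Pfkfb3: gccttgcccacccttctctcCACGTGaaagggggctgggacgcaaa

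The Bnip3 run lies at chr1:203155028-203155090 on the minus strand, and its 4 matches fall between 108 and 86 bases before the start. The Slc2a1 runs lie at chr5:138002349-138002393 and chr5:138002426-138002530, the Hif1a runs at chr6:98359649-98359694 and chr6:98359714-98359758, and the Pfkfb3 run at chr17:71944871-71944916, all on the plus strand. In Bnip3, Hif1a and Pfkfb3 a pair of matches overlapped to form CACGTG, the E-box that other factors also bind. ACGTG or its reverse was present in the promoters of these 4 genes and in 19.3% of all promoters. No match lay within these windows for Adm, Egln3, Stc2 or either of the Vegfa promoters, which says nothing about more distant sites. A match of letters is not evidence of binding.

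The tissue label was compared with marker genes. All 10 HC markers and all 8 supporting cell markers were expressed, and 5 of 6 skeletal muscle genes stayed under 1 CPM (read counts relative to library size after TMM scaling between libraries) in all libraries. Libraries held from 13358678 to 18561991 counts. The summed level of the HC markers was from 7040 to 8087 CPM in the controls and from 2932 to 3872 CPM in the exposed animals, and that of the supporting cell markers from 11065 to 11908 and from 6092 to 7613 CPM. Single genes carried much of both sums. Without Spp1, which made up 60.1% of the HC sum in the controls, the HC markers were at 68.3% of control (2962 to 3044 against 1903 to 2252 CPM), and Gfi1 (94.9%) and Ush1c (88.2%) were close to it. Without Otog the supporting cell markers were at 70.4% of control. The epithelium also carried RNA of Schwann cells, endothelium, blood and stroma. From such bulk samples alone fewer cells of a type and less RNA per cell cannot be told apart. For HCs, the authors counted cells in other rats after the same exposure and reported limited loss, confined to parts of the crista. They also reported lower signal per HC for several proteins and for Vsig10l2 RNA, though not for MYO7A.

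Stc1 differed most between the groups among the 10 genes, and it was higher in the exposed animals. In the controls its level was 6.65, 11.3 and 11.1 CPM, from 103, 162 and 157 counts. In the IDPN-4wk animals it was 44.3, 45.0 and 41.4 CPM, from 616, 872 and 643 counts. The groups were far apart: the lowest IDPN-4wk animal had 3.66 times the CPM of the highest control. The means were 9.70 ± 2.64 CPM in the controls and 43.6 ± 1.90 CPM in the exposed animals (SD, n = 3 each), and the log2-Fold change from edgeR was 2.17 (SE 0.17), or 4.50-fold. The 3 exposed animals were also much alike, with a coefficient of variation of 4.37% against 27.2% among controls, where control replicate 1 was the low one. Leaving out each animal in turn gave log2-Fold changes from 1.96 to 2.30.

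Stc2, the paralog of Stc1, was close to undetected. It had 4, 2 and 1 counts in the controls and 1, 9 and 2 counts in the IDPN-4wk animals. A count of 0 allows up to 3 counts, or 0.155 to 0.216 CPM depending on the library, and 4 of the 6 libraries were at or under 3 counts. The highest value, 9 counts in IDPN-4wk replicate 2, came from the deepest library. Stc2 did not pass the filter on low counts, and no difference was detectable at this depth.

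**Figure D1:**
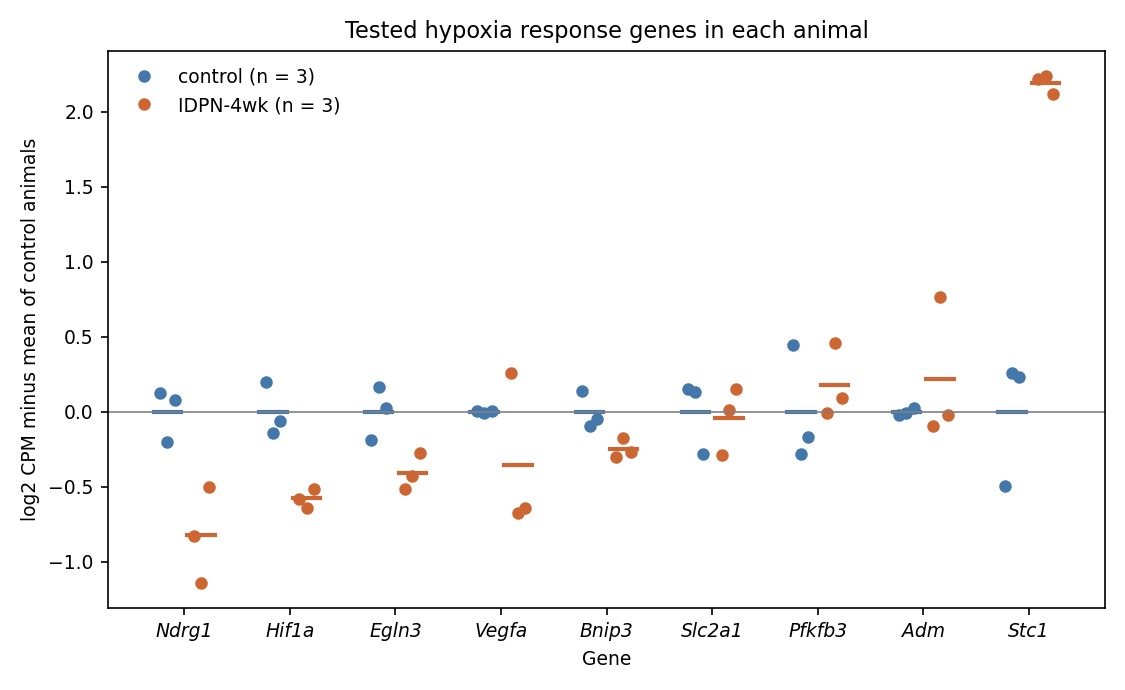
Log2 CPM (y axis) of the 9 hypoxia response genes that passed the filter on low counts (x axis), each minus the mean of the control animals. Points are animals, 3 in each group, and bars are group means. The 3 IDPN-4wk points of Stc1 lie more than 2 log2 units above the control mean, those of Ndrg1, Hif1a, Egln3 and Bnip3 lie below all controls, and those of Slc2a1, Pfkfb3, Adm and Vegfa overlap them.

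Hif1a, the oxygen-regulated subunit of HIF, was lower in IDPN-4wk animals. It had 531, 419 and 444 CPM in the controls and 309, 296 and 324 CPM in the exposed animals. No exposed animal reached the lowest control, and the mean was at 66.7% of control. The log2-Fold change of -0.58 (SE 0.09) lay on a 1.5-fold change, the threshold that calls of other genes needed beside an adjusted p (Padj) under 0.05. Without control replicate 1, the highest of the controls, it was -0.48, as it was when libraries were scaled by their size only (-0.48). Leaving out each animal in turn gave values from -0.65 to -0.48. Hif1a passed both thresholds in 4 of these 6 fits. It also did in 3 of the 6 other alternatives, among them DESeq2 (-0.59), the method of the study. HIF is regulated mainly through the stability of its protein, which was not measured.

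Egln3, the prolyl hydroxylase that HIF itself induces, had 19.4, 24.8 and 22.6 CPM in the controls and 15.5, 16.4 and 18.3 CPM in the exposed animals. The groups did not overlap, and the log2-Fold change was -0.41 (SE 0.13). Bnip3, which marks mitochondria for removal under hypoxia, had 135, 115 and 119 CPM in the controls and 99.6, 109 and 102 CPM in the exposed animals. Its groups did not overlap either, with a log2-Fold change of -0.25 (SE 0.08).

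Ndrg1 was lower in IDPN-4wk animals. It encodes a cytoplasmic protein induced by hypoxia and by differentiation, and its loss in humans causes a demyelinating neuropathy. The controls had 999.9, 796 and 965.9 CPM and the IDPN-4wk animals 516, 416 and 646 CPM. The groups did not overlap, the mean was at 57.1% of control, and the log2-Fold change was -0.81 (SE 0.14). Leaving out each animal in turn gave values from -0.99 to -0.67.

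Since Ndrg1 is prominent in Schwann cells, the myelin genes were set beside it. Of 6 Schwann cell markers, 5 were lower and 1 of these, Pmp22, passed both thresholds by a narrow margin (log2-Fold change -0.59, SE 0.14, edgeR Padj 0.0148), where 6.62% of all genes tested fell. At an edgeR Padj under 0.05 alone 4 of the 6 were lower, where 11.5% of all genes tested were. The sixth, Sox10, was at 114% of control, also with separate groups. Their summed level was from 7646 to 9768 CPM in the controls and from 5233 to 7912 CPM in the exposed animals, at 77.6% of control where Ndrg1 was at 57.1%. Ndrg1 amounted to 10.5% ± 0.238 of that sum in the controls and to 7.70% ± 0.618 in the IDPN-4wk animals (SD, n = 3 each), with no overlap. Within each group, Ndrg1 ranked the animals in the same order as this sum. The groups did not overlap in 5 of the 6 markers, Sox10 among them, as in 37.8% of all genes tested, and the median log2-Fold change of the 6 was -0.55, against -0.81 for Ndrg1. The part of Schwann cell RNA in the level of Ndrg1 was not tested. The paralogs Ndrg2, Ndrg3 and Ndrg4 had log2-Fold changes of -0.08, -0.23 and -0.13, with 0 of 3 past both thresholds in edgeR, 0 with DESeq2 and 0 at an unadjusted p under 0.05. The sign for Ndrg2 turned with library size alone (0.03).

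The other 4 genes overlapped between the groups. Slc2a1, the glucose transporter GLUT1 of blood-tissue barriers, had 228, 224 and 169 CPM in the controls and 168, 207 and 228 CPM in the exposed animals. Its log2-Fold change was -0.04 (SE 0.13), and the sign turned with library size alone (0.06). Pfkfb3, the enzyme that raises the main activator of glycolysis, had 18.6, 11.2 and 12.1 CPM in the controls and 13.5, 18.7 and 14.5 CPM in the exposed animals (log2-Fold change 0.16, SE 0.21). Control replicate 1 was close to the highest exposed animal, and the sign turned without IDPN-4wk replicate 2.

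Adm, the gene of the vasodilator peptide adrenomedullin, had 5.68, 5.73 and 5.87 CPM in the controls and 5.39, 9.90 and 5.67 CPM in the exposed animals. A single animal, IDPN-4wk replicate 2, stood above all others. The log2-Fold change was 0.29 (SE 0.25), and -0.06 without that animal. The same animal was the highest in blood: the summed red blood cell markers were from 264 to 314 CPM in control, and 429, 625 and 306 CPM in the exposed animals. The part of blood in the Adm value was not tested.

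Vegfa, the main growth factor of blood vessels, had only 23, 21 and 21 counts in control and 25, 17 and 14 counts in IDPN-4wk animals, or 1.49, 1.47 and 1.49 CPM against 1.80, 0.877 and 0.901 CPM. The log2-Fold change was -0.33 (SE 0.40). No difference was detectable at these counts, and whether the annotation the authors used covers the 3' end of the gene was not checked. The 2 lower exposed animals were below all controls while the third was above them.

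In all, 9 of the 10 genes passed the filter on low counts, and these are not all members. In the edgeR fit across 14352 genes, 1 of the 9 passed both thresholds upwards (Stc1) and 1 downwards (Ndrg1), where 9.71% of all genes tested were called in either direction, 3.09% upwards and 6.62% downwards. The groups did not overlap in 5 of the 9, and in 37.8% of all genes tested. The median log2-Fold change of the 9 was -0.25, that of all genes tested 0.02. With library size alone the median of all genes was 0.13, and that of the 9 genes was -0.14. These counts describe genes chosen with this comparison known, and nothing is read from them. Among the controls, replicate 1 was the highest in 5 of the 9 genes (Slc2a1, Bnip3, Hif1a, Ndrg1 and Pfkfb3) and the lowest in 3 (Stc1, Adm and Egln3). Among the exposed animals, replicate 1 was the lowest in 5 and replicates 2 and 3 were each the highest in 4.

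**Figure D2:**
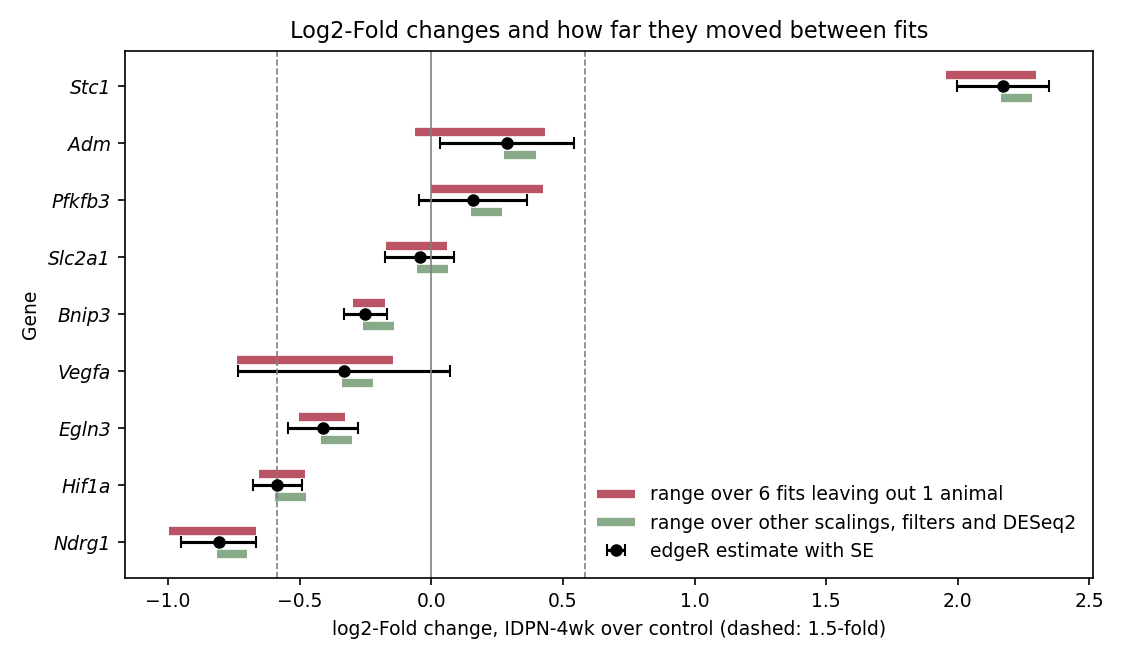
Log2-Fold change of IDPN-4wk over control (x axis) for the 9 tested genes (y axis). Black points are the edgeR estimates with their SE, red bars the range over the 6 fits that left out 1 animal, green bars the range over other scalings, filters and DESeq2, and dashed lines a 1.5-fold change. With an animal left out, Stc1 ranges from 1.96 to 2.30 and Ndrg1 from -0.99 to -0.67, and the bars of Hif1a lie across the line.

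The other genes of the oxygen response were taken from lists written from general knowledge and not by how they moved. The lists were made with earlier results of these data known. Of 13 regulators of HIF tested, 0 passed both thresholds in edgeR, 0 with DESeq2 and 6 had an unadjusted p under 0.05, as did 33.1% of all genes tested. Epas1, the second alpha subunit of HIF, had 366, 401 and 353 CPM in the controls and 293, 290 and 327 CPM in the exposed animals, and its difference of -0.30 on the log2 scale (SE 0.08, edgeR Padj 0.0234) is under the fold threshold. The hydroxylase Egln2 (0.19, edgeR Padj 0.0799), the ubiquitin ligase subunit Vhl (0.22, edgeR Padj 0.0728) and the partner subunit Arnt (0.22, edgeR Padj 0.206) did not pass. Egln1, the main hydroxylase acting on HIF in most tissues, had between 7 and 20 counts in a library, its 3' annotation likewise not checked, and a log2-Fold change of -0.03 (SE 0.46), whose sign turned with library size alone (0.08).

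The other 2 regulators with a Padj under 0.05 were higher, and are named here after their values were seen. With Epas1, 2 of the 13 were thus higher and 1 lower at this threshold, which 19.4% of all genes tested passed in either direction. Arnt2, a partner subunit of neural tissue, had 162, 112 and 147 CPM in the controls and 228, 190 and 190 CPM in the exposed animals (log2-Fold change 0.53, SE 0.13, edgeR Padj 0.0145). Cited2, which competes with HIF for its coactivators, had 9.56, 9.99 and 9.84 CPM in the controls and 13.9, 17.3 and 12.4 CPM in the exposed animals (0.57, SE 0.16, edgeR Padj 0.0309). Each passed the fold threshold in part of the alternative fits. Arnt2 was called without control replicate 1 (0.64) and Cited2 without IDPN-4wk replicate 3 (0.66).

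Genes of glucose uptake and glycolysis are classic HIF targets. Of 21 tested, 0 passed both thresholds in edgeR, 0 with DESeq2, and 7 had an unadjusted p under 0.05, a share close to the 33.1% of all genes tested. Their median log2-Fold change was -0.09, and 0.02 with library size alone. At an edgeR Padj under 0.05 alone 3 of the 21 were lower and 0 higher. Of all genes tested 11.5% were lower at that threshold and 19.4% passed in either direction. These 3 differed by less than the fold threshold, and are named after their values were seen except Pgk1. On the log2 scale Tpi1 differed by -0.41 (edgeR Padj 0.0040), the phosphofructokinase subunit Pfkm by -0.38 (edgeR Padj 0.00603) and Pgk1 by -0.25 (edgeR Padj 0.0296). Ldha, which makes lactate, had 411, 353 and 402 CPM in the controls and 431, 429 and 414 CPM in the exposed animals (log2-Fold change 0.13, edgeR Padj 0.277).

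Of 34 further hypoxia-inducible genes tested, 3 rose and 2 fell, where 3.09% of all genes tested rose and 6.62% fell. The share that fell was close to that of all genes. Ddit4, an inhibitor of growth signalling through mTOR that many stresses induce, rose from 35.3, 31.8 and 24.5 CPM to 43.6, 51.0 and 44.6 CPM (log2-Fold change 0.61, SE 0.13, edgeR Padj 0.00949). Lox, which crosslinks collagen, rose from 11.6, 14.1 and 17.0 CPM to 32.6, 28.8 and 18.2 CPM (0.90, SE 0.21, edgeR Padj 0.0139). Hmox1, the haem-degrading enzyme induced by oxidative stress, rose from 11.9, 9.64 and 10.8 CPM to 20.6, 21.0 and 13.6 CPM (0.77, SE 0.18, edgeR Padj 0.0140). In all 3 the groups were separate, as in 10 of the 34 genes and in 37.8% of all genes tested.

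The 2 genes that fell were Car12 and Gbe1. Car12, a carbonic anhydrase of epithelial membranes, fell from 220, 249 and 226 CPM to 70.7, 76.9 and 105 CPM (log2-Fold change -1.46, SE 0.13, edgeR Padj 4.75e-05). Car12 is known to be expressed in HCs, and 6 of the 10 HC markers fell as well, where 6.62% of all genes tested did, their sum being at 44.1% of control and, without Spp1, at 68.3%. Of 6 dark cell markers 3 fell, with the sum at 59.5% of control and, without Atp1b2, at 48.6%, while Bsnd was at 104%. Of 8 supporting cell markers 3 fell, with the sum at 59.8% of control, while Sox9 was at 118%. The part of these cell types in the fall of Car12 was not tested. Gbe1, the branching enzyme of glycogen synthesis, fell from 73.7, 72.1 and 66.1 CPM to 37.5, 38.3 and 48.9 CPM (-0.77, SE 0.11, edgeR Padj 8.48e-04). The median of the 34 genes was 0.04. At an edgeR Padj under 0.05 alone 4 were higher and 2 lower, where 19.4% of all genes tested passed in either direction. The fourth higher gene was Cp (0.46, edgeR Padj 0.0049), under the fold threshold and named after its value was seen. Bnip3l, the paralog of Bnip3, had 197, 205 and 204 CPM in the controls and 213, 211 and 206 CPM in the exposed animals (log2-Fold change 0.06, edgeR Padj 0.575). Car9, one of the genes most dependent on HIF, had 0 counts in 5 libraries and 2 counts in IDPN-4wk replicate 1, and Epo had 2 counts in control replicate 1 and 0 elsewhere. Calls of the 3 genes that rose past both thresholds depended on single animals. Ddit4 lost its call without control replicate 3 (0.47) or IDPN-4wk replicate 2 (0.53), Lox without IDPN-4wk replicate 1 (0.72, edgeR Padj 0.0634) and Hmox1 without control replicate 2, IDPN-4wk replicate 1 or IDPN-4wk replicate 2 (edgeR Padj from 0.0552 to 0.0623).

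**Figure D3:**
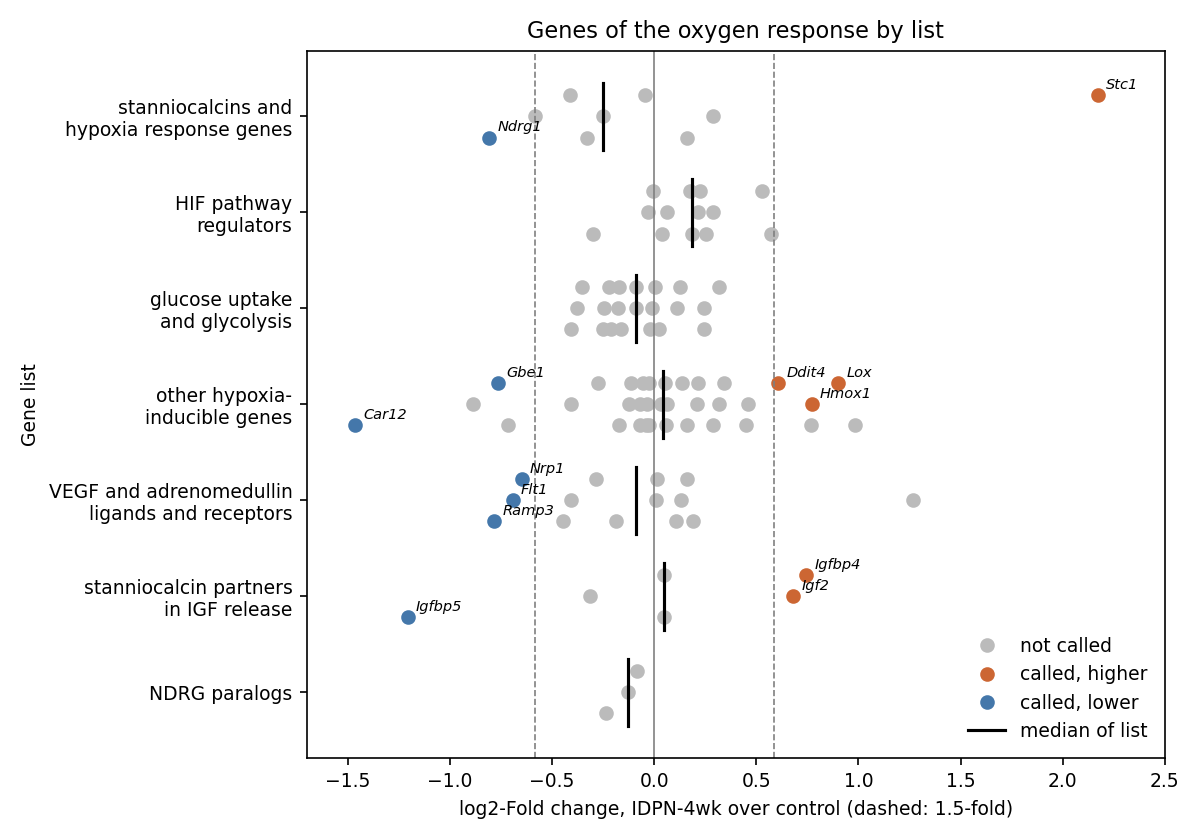
Log2-Fold change of IDPN-4wk over control (x axis) for each tested gene of the 7 lists (y axis), with the stanniocalcins and hypoxia response genes at the top. Orange and blue points passed both thresholds upwards or downwards and carry their symbol, grey points did not, black bars are list medians and dashed lines a 1.5-fold change. Stc1, at 2.17, lies beyond all other points, and list medians lie between -0.25 and 0.19.

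Of 14 ligand and receptor genes of VEGF and adrenomedullin tested, 0 rose and 3 fell, against 3.09% and 6.62% of all genes tested. All 3 are receptors or receptor subunits. Flt1, a VEGF receptor, fell from 70.0, 115 and 68.7 CPM to 52.5, 47.7 and 56.9 CPM (log2-Fold change -0.69, SE 0.18, edgeR Padj 0.0194). The co-receptor Nrp1 fell from 62.4, 78.6 and 68.7 CPM to 43.6, 46.6 and 43.3 CPM (-0.65, SE 0.10, edgeR Padj 0.0011). Ramp3, which turns the receptor Calcrl into one for adrenomedullin, fell from 72.6, 70.2 and 66.5 CPM to 35.3, 38.1 and 48.3 CPM (-0.78, SE 0.11, edgeR Padj 9.50e-04). The VEGF receptor Kdr (-0.28, edgeR Padj 0.112), Calcrl itself (-0.19, edgeR Padj 0.571) and the related subunit Ramp2 (0.13, edgeR Padj 0.669) did not pass. At an edgeR Padj under 0.05 alone 4 of the 14 were lower and 0 higher, where 11.5% of all genes tested were lower. The fourth was the related subunit Ramp1 (-0.41, edgeR Padj 0.0044), under the fold threshold and named after its value was seen.

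The summed level of the endothelial markers was from 361 to 480 CPM in the controls and from 385 to 431 CPM in the exposed animals, with 0 of 6 past both thresholds in edgeR, 0 with DESeq2 and 0 at an unadjusted p under 0.05. Of 7 pericyte and smooth muscle markers, 3 fell, where 6.62% of all genes tested did, and their sum was from 185 to 226 CPM and from 160 to 190.5 CPM. Without Pdgfrb, 65.2% of that sum in the controls, it was from 61.6 to 80.8 and from 36.1 to 54.3 CPM. The part of these cells in the fall of the receptors was not tested. Control replicate 2 was the highest library in the full endothelial and pericyte sums and in Flt1. Without it only Ramp3 of the list was called, with Flt1 at -0.41 and Nrp1 at -0.56. Flt1 also lost its call without IDPN-4wk replicate 1 or 2 (edgeR Padj 0.0621 and 0.0696), and both genes did with library size alone (-0.58 and -0.54).

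The genes that stanniocalcins act on through the pappalysins were compared next. Of 6 tested, 2 rose and 1 fell, against the same shares of 3.09% and 6.62% of all genes tested. Igfbp5, a binding protein that holds IGFs in the matrix, fell from 1478, 1460 and 1238 CPM to 594, 664 and 550 CPM (log2-Fold change -1.21, SE 0.10, edgeR Padj 2.95e-05). Igfbp4, the substrate best known for PAPP-A, moved the other way, from 141, 120 and 130 CPM to 257, 185 and 215 CPM (0.75, SE 0.11, edgeR Padj 0.00125). In both the groups were separate, as in 3 of the 6 genes and in 37.8% of all genes tested. Both calls held in all 12 alternative fits.

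The growth factors were Igf1 and Igf2. Igf2 rose from 21.2, 15.6 and 22.5 CPM to 37.5, 33.7 and 24.1 CPM (log2-Fold change 0.68, SE 0.18, edgeR Padj 0.0234). This call was lost without control replicate 2 (0.54), IDPN-4wk replicate 1 (0.54) or IDPN-4wk replicate 2 (0.63), with edgeR Padj from 0.0755 to 0.1003. Igf1 was at 11.1, 9.92 and 9.13 CPM in the controls and 12.1, 9.96 and 9.27 CPM in the exposed animals (0.05, SE 0.17, edgeR Padj 0.867). Igfbp2 (0.05, edgeR Padj 0.668) and the receptor Igf1r (-0.32, edgeR Padj 0.0757) did not pass. Pappa2, a pappalysin, had 18, 1 and 9 counts in control and 0, 0 and 2 counts in IDPN-4wk animals and did not pass the filter, and Pappa was not analysed here.

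**Figure D4:**
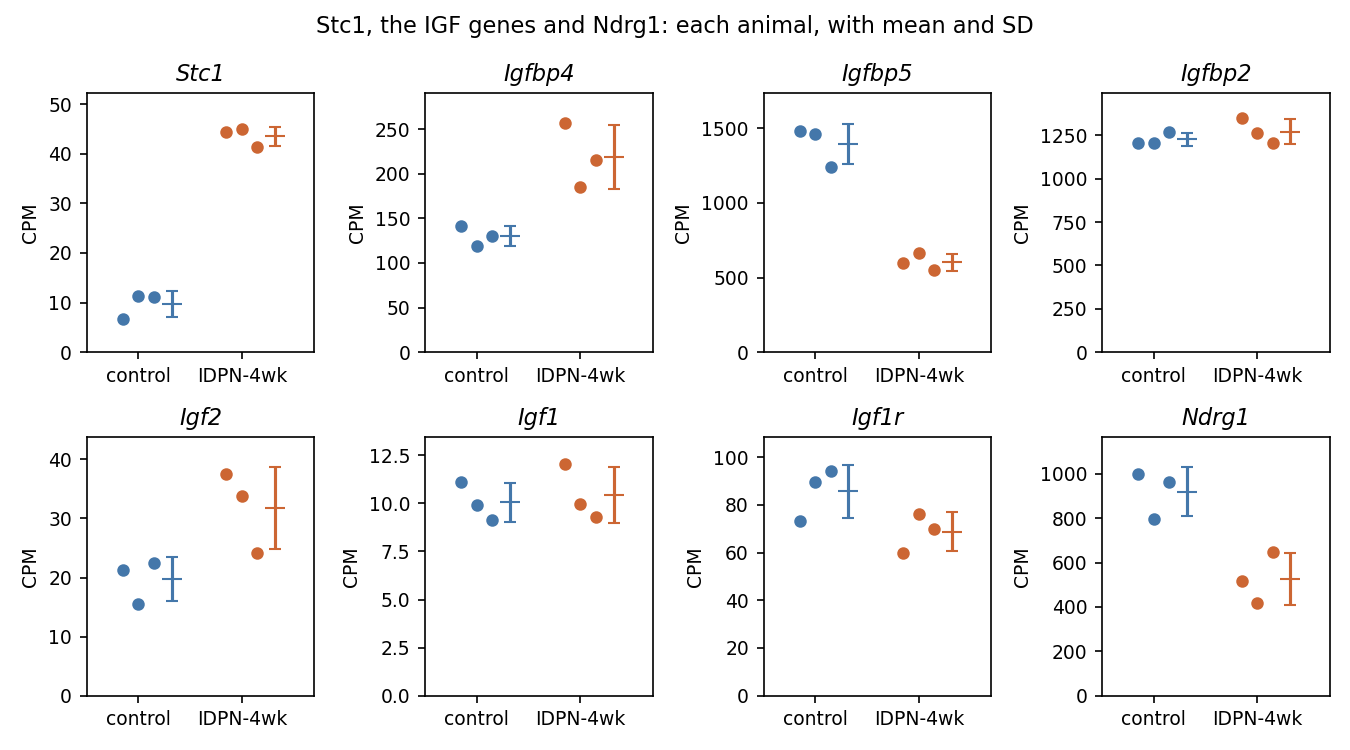
CPM (y axes, each from 0) in control and IDPN-4wk animals (x axes) for Stc1, the IGF genes and Ndrg1. Points are animals, 3 in each group, with the mean and SD beside them. Stc1 and Igfbp4 are higher and Igfbp5 and Ndrg1 lower in all 3 IDPN-4wk animals than in any control, while Igf1, Igfbp2 and Igf1r overlap.

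The genes whose pattern over the 6 libraries was most like that of Stc1 were found by the root mean square difference of log2 CPM after centring each gene on its control mean, among genes averaging at least 1 CPM. The nearest 5 were Cpne9 (0.213), Cldn6 (0.235), Siglec15 (0.256), Prph (0.262) and Cxcl11 (0.281). Cldn6, a claudin of embryonic epithelia, was at 10.2 ± 1.30 CPM in the controls and 44.8 ± 11.0 CPM in the exposed animals (SD, n = 3 each). Cpne9, Siglec15, Prph and Cxcl11 averaged under 1 CPM in the controls and from 2.60 to 4.92 CPM in the exposed animals, so their likeness rests on low values. These 4 reached the minimum of 1 CPM only through the exposed animals, so they had to be higher there. The likeness is a description, since the search used the values by which Stc1 was chosen. The choice was not stable: without control replicate 1, the animal low in Stc1, 0 of these 5 were among the nearest 5, and without IDPN-4wk replicate 3 there were 3.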

How the data were processed

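Vestibular epithelium of 3 control and 3 IDPN-4wk rats was analysed. The authors reverse transcribed total RNA with an oligo-dT primer (SMART-seq2), mapped paired-end reads to rat Rnor6.0 with STAR and deposited expected counts per gene estimated with RSEM. These carry no strand or molecular identifiers, so counts of overlapping genes and of paralogs that share reads are less certain. They were whole numbers, and rounding changed 0 of them. Rnor6.0 coordinates were not used here.

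Low counts were removed by filterByExpr at a minimum count of 10 and a minimum total of 15. After TMM scaling, groups were compared in edgeR 4.0.16 (R 4.3.3) by its two-sided quasi-likelihood F test, with Benjamini-Hochberg adjustment (Padj) over 14352 genes. Calls needed Padj under 0.05 and a fold change over 1.5, the thresholds of the study, which used DESeq2. DESeq2 1.42.0 was an alternative, as were library size alone, DESeq2 size factors, upper quartile scaling, no filter, a mean count of at least 50, and leaving out each library. The fit was tested on simulated data. SE was taken from the quasi F statistic. Log2 CPM used a prior count of 2.

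The genes and lists were chosen with earlier results of these data known. Named in the text are the 10 genes, up to 4 genes per list and direction with the smallest p past both thresholds, 17 fixed pathway genes, and the 5 genes nearest to Stc1. Others were named after their values were seen. Replicates were numbered by accession order. As each library is an animal, p-values set the group difference against the variation between animals, estimated with information shared across genes. Of the listed genes, Ep300, Gapdh, Pappa, Pecam1, Hba1 and Hbb-b1 were not analysed here. Promoters came from RefSeq, build GRCr8. Depth ranged from 13358678 to 18561991 counts, and floors cover counting error only.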

Additional observations from a re-analysis of the deposited data

How the results depend on the processing

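Of the 10 genes, which were chosen with this comparison known, 2 were past both thresholds in the reported fit and 2 or 3 in the others, Hif1a being the third. In the list of HIF regulators, the 0 calls became 2 with library size alone and 1 with upper quartile scaling, and ranged from 0 to 1 with an animal left out. For VEGF and adrenomedullin genes the 3 calls became 1 with library size alone and ranged from 1 to 3 with an animal left out. For the further hypoxia-inducible genes the 5 calls ranged from 3 to 7. For the genes of IGF release they ranged from 2 to 3.

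Signs turned only in differences that were not called. With library size alone, which moved the median of all genes from 0.02 to 0.13, the log2-Fold change became 0.064 for Slc2a1, 0.076 for Egln1 and 0.027 for Ndrg2, and with upper quartile scaling that of Egln1 was 0.0010. With an animal left out, the values ranged from -0.061 to 0.43 for Adm, from -0.17 to 0.061 for Slc2a1, from -0.00071 to 0.42 for Pfkfb3, from -0.22 to 0.21 for Egln1, from -0.38 to 0.11 for Calcrl, from -0.039 to 0.23 for Ramp2, from -0.072 to 0.13 for Igf1, from -0.0019 to 0.076 for Igfbp2 and from -0.43 to 0.015 for Ndrg3. The cause was not tested. Control and exposed animals were different rats with no pairing given, so no paired analysis was made. Low counts limited Stc2, Vegfa and Egln1, which had at most 9, 25 and 20 in a library. How the annotation covers the 3' ends of Vegfa and Egln1 was not checked.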
